A study of Mus musculus with 14 samples.

Results

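Kinesin genes were followed in Y1 cells, a mouse adrenocortical tumour line, after stimulation with serum alone or with serum and FGF-2. Members were all genes of the RNA count files whose symbol starts with Kif and a digit, together with Kifc1, Kifc3 and Kifap3, which gave 43 of 24465 genes. Cells of both groups were kept without serum for 48 h and then received 10% fetal bovine serum for 5 h, either alone or with FGF-2 at 10 ng/ml. Poly(A) RNA was sequenced in 3 libraries per group, and chromatin carrying H3K27ac, acetylated lysine on histone H3 found at active promoters and enhancers, in 2 libraries per group. Every library came from this 1 tumour line, and the labels do not say whether replicates were separate cultures, so p-values measure only the spread between these libraries, which may be technical.

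Kinesins are motor proteins that use ATP to walk along microtubules or to take microtubule ends apart. One set builds the mitotic spindle, moves chromosomes and completes cytokinesis, and its RNAs are known to peak in late cell cycle phases. Another set carries vesicles, organelles and protein complexes in all phases, usually through light chains or adaptors that hold the cargo. The members were sorted by these roles into 13 mitotic kinesins, 14 transport kinesins, 2 kinesin-associated proteins (Kifap3 and Kif1bp), 6 ciliary and Hedgehog kinesins, 6 other kinesins, 1 pseudogene (Kif4-ps) and 1 antisense RNA (Kif16bos). Kifc5b, a close copy of Kifc1, falls outside the rule.

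With FGF-2, RNA of all 12 tested mitotic kinesins was lower than with serum alone, by 2.25-fold to 4.22-fold. Kif2a, a relative of the mitotic kinesin Kif2c, was placed among the other kinesins and did not pass the test (log2 0.28). Of 12 tested transport kinesins, Kif5c, Kif13a and Kif3a fell, Kif3c rose 2.64-fold, and 8 did not pass the test. Outside these sets, Kif24 fell 3.24-fold and Kif26b fell 6.20-fold. In total 17 members fell, 1 rose and 15 did not pass, at an adjusted p under 0.05 in edgeR's quasi-likelihood test with Benjamini-Hochberg adjustment over all genes tested. Among the 12260 genes tested, 20.4% fell and 20% rose, and the median log2 fold change was -0.02.

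**Figure D1:**
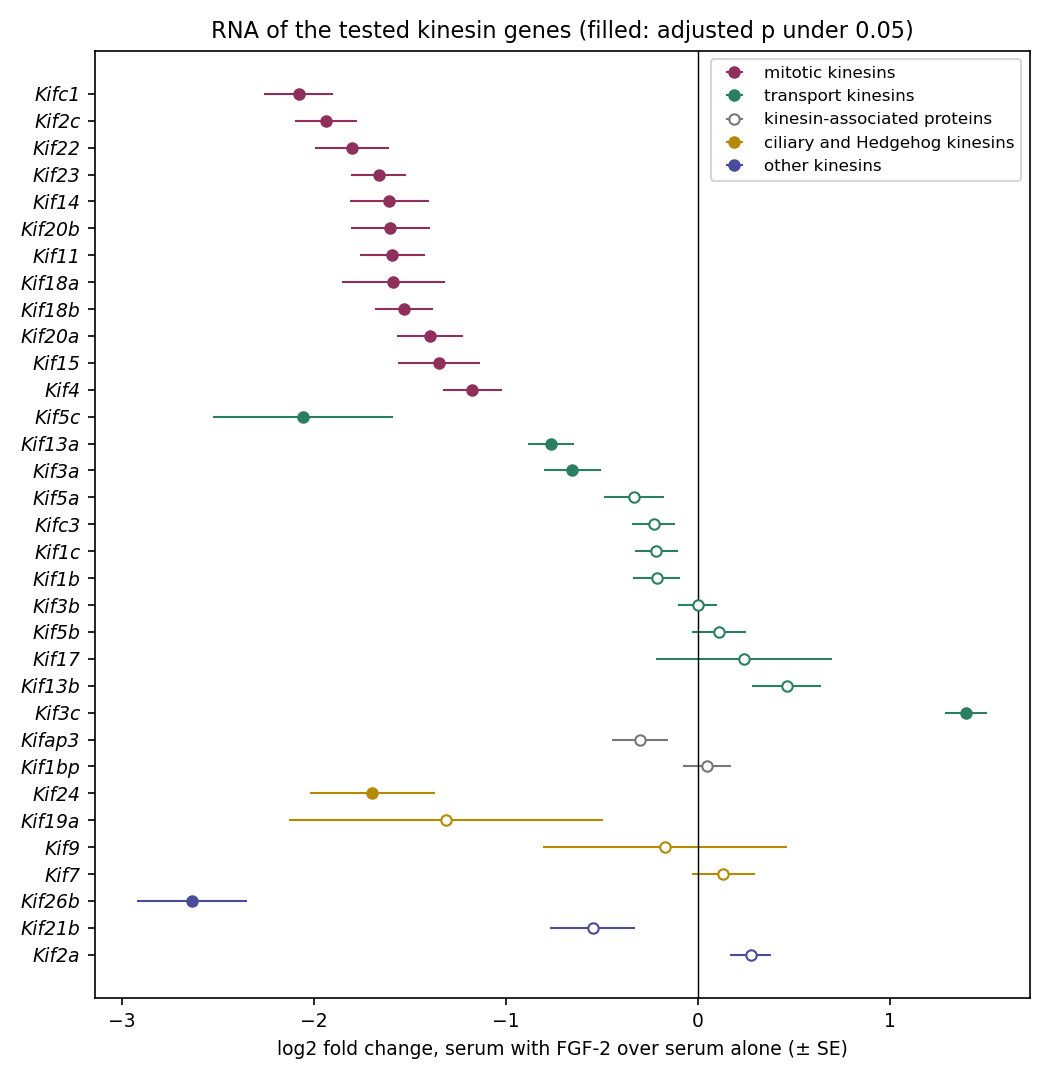
Log2 fold change of RNA (x axis, FGF-2 group over serum group, bars show SE, 3 libraries per group) for the 33 tested kinesin genes, coloured by role. Filled points passed an adjusted p of 0.05: the 12 mitotic kinesins all lie between -2.08 and -1.17, and Kif3c is the 1 filled point above 0. With scaling to library totals, Kif3b, Kif5b, Kif17, Kif1bp, Kif7 and Kif2a move below 0, and with upper-quartile scaling Kif3b and Kif1bp do.

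The RNA libraries held 5625004 to 12696426 reads counted in genes, and library 3 of each group was the shallowest. A count of 3 equals 0.267 to 0.541 CPM, which are counts scaled to a fixed library total after TMM correction. Of the 43 members, 33 had at least 10 counts summed over the 6 libraries and were tested. Kif2b, Kif16b, Kif6, Kif12, Kif21a, Kif4-ps and Kif16bos had no counts, Kif1a had 5, and Kif27 and Kif26a had 1 each. Genes of other lists, Dync1i2, Dctn4, Trak1 and Col1a2 among them, also had no counts in any library. Whether such zeros, here and among the markers below, reflect the cells or the authors' counting was not tested. The line's label was checked against marker genes. Nr5a1, the regulator that defines steroid-making cells, averaged 74.1 CPM with serum and 71.5 CPM with FGF-2, whereas Mc2r, the ACTH receptor, averaged 0.126 and 0.124 CPM and Nr0b1 was at 0. Of 8 tested adrenocortical markers 2 fell and 1 rose, beside 20.4% and 20% of all genes tested. That list summed to 847 to 1090 CPM with serum and 2370 to 3823 CPM with FGF-2. Star, the carrier of cholesterol into mitochondria, rose from 96.9, 117 and 279 CPM to 2015, 1727 and 3152 CPM, while Cyp11b1 (log2 -1.39) and Fdxr (log2 -1.01) of steroid synthesis fell. Markers of endothelium and blood summed to 8.59 to 14.5 CPM with serum and 9.33 to 11.8 CPM with FGF-2 (1 of 3 tested fell). Those of adrenal medulla summed to 5.35 to 7.01 CPM with serum and 1.51 to 2.71 CPM with FGF-2, with Th and Dbh at 0. Most of the medulla sum was Ddc, the 1 gene tested, which fell from a mean of 6.14 to 2.03 CPM. Fibroblast and capsule markers summed to 2804 to 3483 CPM with serum and 2044 to 2937 CPM with FGF-2, with Col1a2 and Dcn at 0. Most of that sum was Col1a1, at a mean of 2926 CPM with serum and 2105 CPM with FGF-2. Pdgfra of the same list averaged 1.21 and 0.704 CPM. Of 5 tested, 1 was lower (Col3a1, log2 -0.45). The part of these marker groups in the kinesin values was not tested.

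Promoter sequences are shown because short elements of cell cycle genes recur in the mitotic kinesins. The cell cycle homology region (CHR), read as TTTGAA, and the CCAAT box are bound by complexes known to govern G2 and M phase genes, and E2F sites by complexes known from S phase genes. Both strands were searched for the CHR strings TTTGAA and TTCGAA, for the CCAAT box, and for the E2F strings TTTGGCGC and TTTCGCGC, in RefSeq windows of GRCm38.p6 (mm10) from 250 bases before to 50 after a start. Of the 43 members 35 had a window. In the lines that follow, 75 bases before the start to 24 after it are given 5' to 3', with complete matches on either strand in capitals (on the other strand TTCAAA reads as TTTGAA, the letters ATTGG read as the CCAAT box, and GCGCCAAA reads as the first E2F string).
Kif11, chr19:37376307-37376406, plus strand: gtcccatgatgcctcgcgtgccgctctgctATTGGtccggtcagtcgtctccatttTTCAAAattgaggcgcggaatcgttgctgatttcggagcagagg
Kif15, chr9:122951006-122951105, plus strand: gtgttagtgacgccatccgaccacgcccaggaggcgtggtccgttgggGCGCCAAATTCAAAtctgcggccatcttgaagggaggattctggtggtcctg
Kif22, chr7:127042396-127042495, minus strand: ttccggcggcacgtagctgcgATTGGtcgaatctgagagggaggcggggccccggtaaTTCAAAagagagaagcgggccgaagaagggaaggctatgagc
Kifc1, chr17:33890609-33890708, minus strand: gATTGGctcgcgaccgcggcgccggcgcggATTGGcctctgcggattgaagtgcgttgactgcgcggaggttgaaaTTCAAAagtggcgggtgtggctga
Kif23, chr9:61946775-61946874, minus strand: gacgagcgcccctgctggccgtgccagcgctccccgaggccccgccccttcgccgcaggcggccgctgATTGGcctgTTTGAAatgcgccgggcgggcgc
Kif18b, chr11:102925100-102925199, minus strand: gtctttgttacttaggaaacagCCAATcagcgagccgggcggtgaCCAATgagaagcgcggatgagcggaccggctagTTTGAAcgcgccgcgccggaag
Kif20b, chr19:34922283-34922382, plus strand: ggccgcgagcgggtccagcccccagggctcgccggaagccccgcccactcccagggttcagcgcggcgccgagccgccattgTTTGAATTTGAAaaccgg
Kif4, chrX:100625990-100626089, plus strand: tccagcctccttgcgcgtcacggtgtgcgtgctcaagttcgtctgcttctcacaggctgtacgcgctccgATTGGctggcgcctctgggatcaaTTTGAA
Kif18a, chr2:109280663-109280762, plus strand: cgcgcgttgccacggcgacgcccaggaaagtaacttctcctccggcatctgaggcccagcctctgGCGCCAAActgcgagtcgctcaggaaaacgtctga
Kif26b, chr1:178529050-178529149, plus strand: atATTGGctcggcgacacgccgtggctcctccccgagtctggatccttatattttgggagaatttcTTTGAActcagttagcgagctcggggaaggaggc
Kif24, chr4:41464824-41464923, minus strand: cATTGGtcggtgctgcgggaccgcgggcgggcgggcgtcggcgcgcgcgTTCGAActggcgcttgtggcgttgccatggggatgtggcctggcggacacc
Kif3c, chr12:3365057-3365156, plus strand: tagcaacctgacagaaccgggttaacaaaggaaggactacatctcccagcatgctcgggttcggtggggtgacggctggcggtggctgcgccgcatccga

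TTTGAA was present in 10 of 11 windows of tested mitotic kinesins (90.9%), in 0 of 9 windows of 8 tested transport kinesins and in 17.9% of all 32851 windows. Windows of members not tested are left out of these and the following kinesin counts. Of those members, the transport kinesin Kif1a held TTTGAA at -44 and the ciliary kinesin Kif27 held it, nearest at -73. The mitotic kinesin Kif2b, also not tested, held none. In Kif11, Kif15, Kif22, Kifc1, Kif23, Kif18b, Kif20b and Kif4 a match began between 19 bases before and 19 bases after the start, counting the start base as 0. The windows of Kif2c and Kif14 had it farther upstream, at -103 and -228, and lie at starts other than the outermost start of the gene. Kif18a had no TTTGAA but held an E2F string 10 bases before its start, and in Kif15 an E2F string directly adjoined TTTGAA. E2F strings occurred in 2 of 11 mitotic windows (18.2%), 0 of 9 transport windows and 0.813% of all windows.

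CCAAT was in 7 of 11 mitotic windows (63.6%), 4 of 9 transport windows (44.4%) and 37.4% of all windows. Windows with both CCAAT and a TTTGAA or TTCGAA were 7 of 11 for mitotic kinesins, 0 of 9 for transport kinesins and 7.52% of all. Among tested members outside the mitotic set, Kif26b held TTTGAA 9 bases before its start. Kif24 held TTCGAA, the other form of this element, 26 bases before its start. All 11 tested members with TTTGAA in the window fell. They are 10 mitotic kinesins and Kif26b, so this repeats falls given above. Of 15 tested members with a window lacking TTTGAA, 5 fell, 1 rose and 9 did not pass. Among all tested genes, windows with the string numbered 329 for genes that fell, 225 for those that rose and 814 for those not called. These were 13.8%, 9.77% and 11.9% of the windows of each group. Of windows of the tested spindle and midzone partners, 12 of 16 (75%) had it. A match describes letters only and is not evidence of a bound site. Kif20a and Kif5b had no window.

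Spindle assembly motors were among the members that fell. Kif11, on chromosome 19 (37376382 to 37421863), is the tetrameric motor that pushes spindle poles apart, and it was at 94.7, 75.1 and 63.4 CPM in the serum libraries and at 22.7, 30.8 and 23.8 CPM in the FGF-2 libraries. Its log2 fold change was -1.59 ± 0.17 (SE), with an adjusted p of 5.93e-05 from edgeR. Kif15, which helps Kif11 to keep the spindle bipolar, had 27.5, 22.1 and 19.6 CPM with serum and 6.44, 11.2 and 9.75 CPM with FGF-2. Every FGF-2 library was below every serum library for both motors. Kif15 had a log2 fold change of -1.35 ± 0.21 and an adjusted p of 0.000584 in edgeR.

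Kifc1, a minus-end-directed motor that focuses spindle poles, fell the most of the mitotic set. It stood at 48.9, 37.6 and 32.8 CPM with serum and at 9.57, 10.6 and 7.76 CPM with FGF-2. Its log2 fold change was -2.08 ± 0.18, with an edgeR adjusted p of 1.26e-05. Kifc5b, its copy, had 17.2 ± 2.28 CPM (SD, n = 3) with serum and 5.45 ± 1.63 CPM with FGF-2, a log2 fold change of -1.62. The split of reads between these copies depends on the authors' counting and is uncertain.

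Of the microtubule-shortening kinesins, those tested in the mitotic set fell and Kif2a did not pass. Kif2b, also in the mitotic set, had no counts and was not tested. Kif2c, a depolymerase at centromeres, had 39.8, 33.5 and 29.3 CPM in the serum libraries and 8.59, 10.2 and 7.76 CPM in the FGF-2 libraries (log2 -1.94 ± 0.16, edgeR adjusted p 1.16e-05). Kif18a, which damps chromosome movements at the metaphase plate, had 16.2, 12.7 and 8.57 CPM against 3.91, 5.33 and 3.07 CPM. The groups did not overlap for either gene. Kif18a's log2 fold change of -1.58 ± 0.27 had the largest adjusted p of the mitotic set, 0.000932 in edgeR. Kif18b, which acts on astral microtubules, was at 30.7, 28.3 and 30.5 CPM with serum, within a narrow range, and at 8.79, 12.1 and 9.93 CPM with FGF-2 (log2 -1.53 ± 0.15). Kif2a, a relative of Kif2c that also acts in interphase, was not placed in the mitotic set and did not pass the test. It had 49.1, 46.8 and 46.5 CPM with serum and 57.6, 54.5 and 60.6 CPM with FGF-2 (log2 0.28, edgeR adjusted p 0.0564). All 3 FGF-2 libraries of Kif2a thus lay above all serum libraries, opposite in sign to Kif2c. Scaled to library totals, Kif2a's value was -0.07.

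The chromokinesins, motors that bind chromosome arms, differed in the size of their fall. Kif22 had 39.5, 36.9 and 26.4 CPM with serum and 7.81, 11.5 and 10.5 CPM with FGF-2 (log2 -1.80 ± 0.19). Kif4, which also acts in the midzone between separating chromosomes, had 54.0, 45.3 and 38.4 CPM with serum and 17.5, 20.9 and 23.5 CPM with FGF-2. Its log2 fold change of -1.17 ± 0.16 was the smallest among the mitotic kinesins, with an edgeR adjusted p of 0.000186. The pseudogene Kif4-ps had no counts.

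All 4 tested motors of the central spindle and cytokinesis fell. Kif23, the motor of the centralspindlin complex, had 75.1, 60.6 and 59.1 CPM with serum and 18.2, 23.2 and 20.2 CPM with FGF-2 (log2 -1.66 ± 0.14). Kif20a, which brings the Aurora B complex to the midzone, had 94.6, 79.9 and 60.5 CPM with serum and 27.6, 34.6 and 27.1 CPM with FGF-2 (log2 -1.39 ± 0.17). Kif20b, a cytokinesis motor related to Kif20a, had 71.6, 52.5 and 43.2 CPM with serum and 15.9, 22.6 and 16.4 CPM with FGF-2 (log2 -1.60 ± 0.21). In each of these 3 genes serum library 1 was the highest and FGF-2 library 2 the highest of its group. Kif14, which recruits citron kinase to the midbody, had 28.7, 21.0 and 19.6 CPM with serum and 7.81, 8.98 and 5.60 CPM with FGF-2 (log2 -1.61 ± 0.21).

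**Figure D2:**
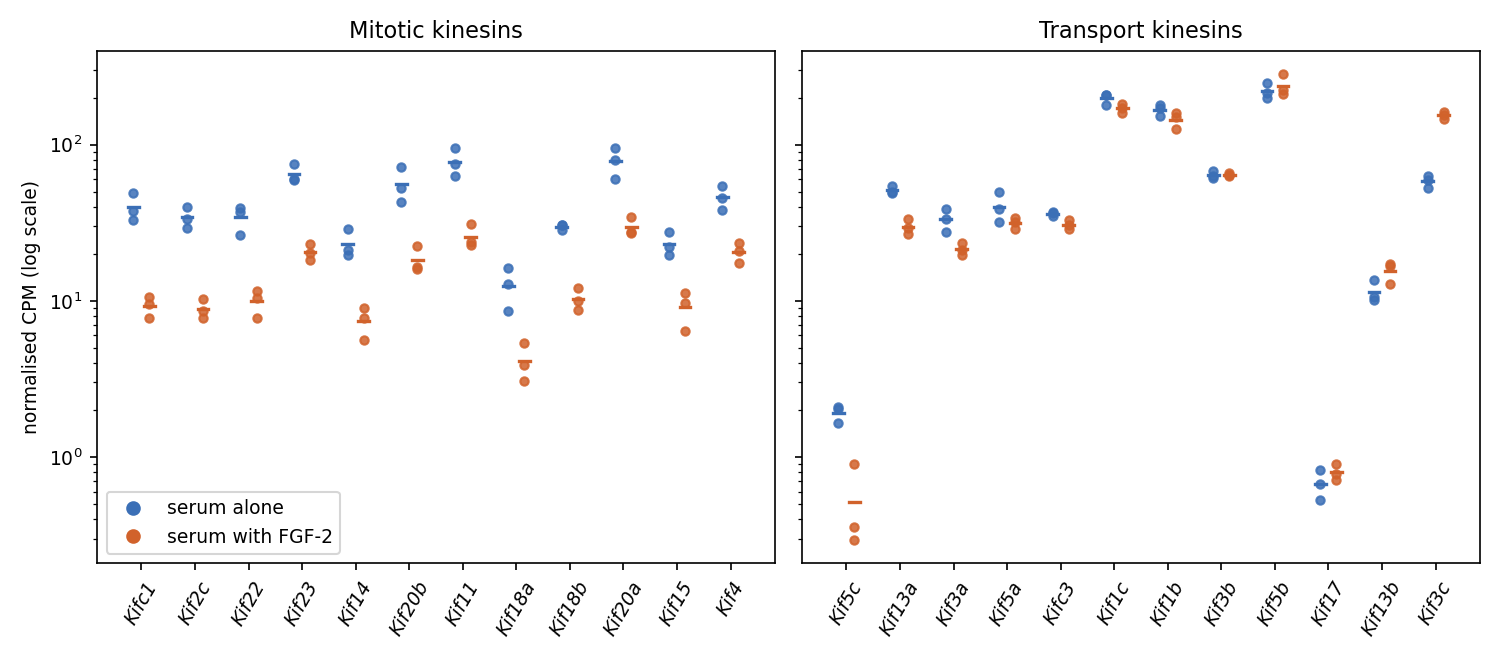
Normalised CPM (log scale) of each tested mitotic kinesin (left) and transport kinesin (right) in the 3 serum libraries and the 3 FGF-2 libraries, with bars at group means. In the left panel the groups are separate for all 12 genes; in the right panel they are separate downward for Kif5c, Kif13a, Kif3a and Kifc3 and upward for Kif3c.

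As a set, the mitotic kinesins had a median log2 fold change of -1.60, beside -0.02 over all genes tested and -0.21 for the transport kinesins. Serum and FGF-2 libraries were separate for 12 of 12 mitotic kinesins, all lower with FGF-2, and for 4 transport kinesins lower and 1 higher. Over all genes tested, 26.3% were lower without overlap and 26.3% higher. The mean log2 CPM of the 12 mitotic kinesins was 5.51, 5.21 and 4.98 in the serum libraries and 3.47, 3.87 and 3.52 in the FGF-2 libraries. For the 12 transport kinesins it was 4.95, 4.98 and 4.99 with serum and 4.78, 4.71 and 4.86 with FGF-2. In the authors' deposited DESeq2 table the mitotic log2 fold changes ran from -2.07 to -1.15, and all 33 tested members had the same call as in edgeR at 0.05.

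The ratio of all reads of mitotic kinesins to all reads of transport kinesins within a library needs no scaling between libraries. It was 0.719, 0.570 and 0.478 with serum and 0.168, 0.238 and 0.176 with FGF-2, a mean of 0.589 ± 0.122 (SD, n = 3) against 0.194 ± 0.0382. The 2 groups did not overlap. The summed transport reads were 885 ± 19.5 CPM with serum and 904 ± 47.3 CPM with FGF-2, whereas the summed mitotic reads were 519 ± 95.8 and 174 ± 24.8 CPM. The transport sum includes Kif3c, which rose from a mean of 58.5 CPM with serum to 154 CPM with FGF-2. Of the 12 tested transport kinesins, 7 had a log2 fold change below 0. Kif3c reads are also in the denominator of the ratio. In bulk RNA, fewer cells in a cell cycle phase and less RNA per cell cannot be told apart.

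Other genes of cell division were read beside these values. Of the 17 tested spindle and midzone partners 16 fell and 0 rose, with a median log2 fold change of -1.26. For comparison, 20.4% of all genes tested fell and 20% rose, with a median of -0.02. Ect2, the exchange factor that works with centralspindlin, had 62.6, 46.9 and 40.7 CPM with serum and 13.2, 15.3 and 14.1 CPM with FGF-2 (log2 -1.82). Nusap1, a microtubule bundling protein, had a log2 fold change of -1.54. Prc1, the midzone crosslinker on which Kif4 and Kif14 dock, was the partner that did not pass, at 118 ± 9.32 CPM with serum and 109 ± 20.6 CPM with FGF-2 (log2 -0.12). Of 14 proliferation markers 11 fell and 0 rose, with a median of -0.96, among them Bub1b (log2 -1.87) and Ccna2 (log2 -1.43); Cdk1, Pcna and Mcm5 did not pass. Their summed level was 1261 to 1698 CPM with serum and 780 to 897 CPM with FGF-2. The part of a shift in cell cycle phases in the kinesin values was not tested.

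Among the transport motors, the kinesin-2 family showed opposite changes of subunits. Kinesin-2 is a trimer of Kif3a, a partner motor (Kif3b or Kif3c) and the cargo-binding Kifap3, and it serves ciliary and axonal transport. Kif3c, on chromosome 12 (3365132 to 3406494), rose from 59.2, 53.1 and 63.3 CPM in the serum libraries to 155, 147 and 161 CPM in the FGF-2 libraries. Its log2 fold change was 1.40 ± 0.11 (SE), with an edgeR adjusted p of 7.60e-06. Kif3a fell from 33.5, 39.0 and 27.5 CPM to 21.3, 19.6 and 23.5 CPM (log2 -0.65 ± 0.15, edgeR adjusted p 0.00494). Neither gene's groups overlapped. Kif3b had 61.2, 67.9 and 63.1 CPM with serum and 65.5, 63.5 and 63.2 CPM with FGF-2, with a log2 fold change of 0.00 ± 0.10 whose sign changed with the scaling. Kifap3 had 29.6, 28.6 and 21.4 CPM with serum and 21.0, 23.1 and 20.8 CPM with FGF-2 (log2 -0.30, edgeR adjusted p 0.121).

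Within each library, Kif3c counts divided by Kif3b counts gave 0.967, 0.783 and 1.00 with serum and 2.37, 2.31 and 2.55 with FGF-2. Kif3a counts divided by Kif3b counts gave 0.548, 0.574 and 0.436 with serum and 0.325, 0.308 and 0.371 with FGF-2. Both ratios separated the groups, in opposite directions. These ratios are not corrected for transcript length, so their change between groups is the measured quantity and not the proportion of subunits.

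**Figure D3:**
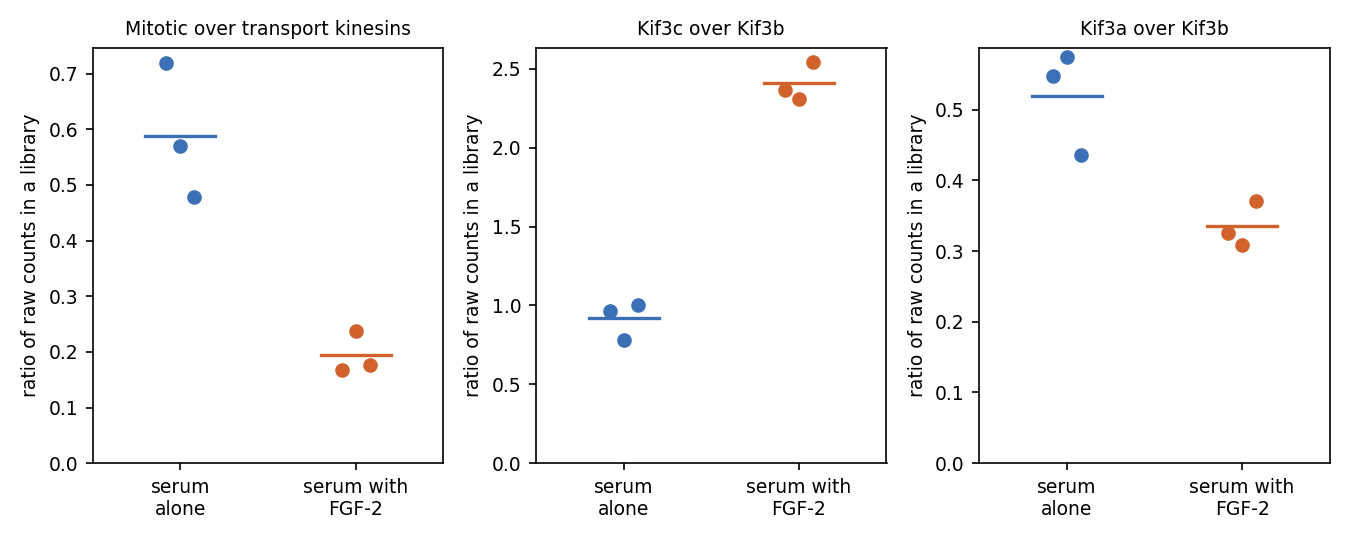
Ratios of raw counts within each library (y axis, from 0) for summed mitotic over summed transport kinesins, Kif3c over Kif3b, and Kif3a over Kif3b; points are the 3 libraries per group and bars their means. Mitotic over transport (0.168 to 0.238) and Kif3a over Kif3b (0.308 to 0.371) are lower in every FGF-2 library, and Kif3c over Kif3b is higher, 2.31 to 2.55.

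Kinesin-1, the main motor for vesicles and mitochondria, is made of the heavy chains Kif5a, Kif5b and Kif5c and of light chains. Kif5b, the heavy chain found in most tissues and the transport member with the highest CPM among those that did not pass, had 214, 200 and 250 CPM with serum and 222, 211 and 283 CPM with FGF-2. Its log2 fold change was 0.11 ± 0.14. Kif5c, known mostly from neurons, had 2.10, 2.02 and 1.65 CPM with serum and 0.293, 0.356 and 0.902 CPM with FGF-2. These rest on 22, 19 and 10 counts with serum and 3, 4 and 5 counts with FGF-2, and gave a log2 fold change of -2.06 ± 0.47 (edgeR adjusted p 0.00512). Kif5a had a log2 fold change of -0.33 (edgeR adjusted p 0.113).

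Light chains and cargo adaptors of kinesin-1 were called at about the share of all genes. Of 11 tested, 2 fell (Mapk8ip1, a scaffold that binds light chains, log2 -0.68, and Klc1, a light chain, log2 -0.35) and 2 rose (Arl8a, log2 0.74, and Arl8b, log2 0.33). Arl8a and Arl8b are small GTPases that couple kinesins to lysosomes. Over all genes tested 20.4% fell and 20% rose. Arl8a was at 45.1, 49.6 and 47.8 CPM with serum and at 78.2, 81.2 and 78.7 CPM with FGF-2.

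In the kinesin-3 family, Kif13a, a motor for recycling endosomes, fell from 54.0, 49.3 and 49.4 CPM to 33.6, 29.2 and 26.9 CPM (log2 -0.76 ± 0.12, edgeR adjusted p 0.000547). Its relative Kif13b had 10.5, 13.5 and 10.1 CPM with serum and 17.2, 16.7 and 12.8 CPM with FGF-2, with overlapping groups (log2 0.46 ± 0.18, edgeR adjusted p 0.0583). The difference between the changes of Kif13a and Kif13b was not tested. Kif1b and Kif1c, carriers of synaptic vesicle precursors and other vesicles, did not pass (log2 -0.21 each). Kif17, a homodimeric kinesin-2, was near the count floor at 0.531 to 0.824 CPM with serum and 0.711 to 0.902 CPM with FGF-2. Kifc3, a minus-end motor, had 37.1, 34.7 and 36.6 CPM with serum and 30.8, 32.7 and 28.7 CPM with FGF-2, lower without overlap but not past the test (log2 -0.23, edgeR adjusted p 0.121). Kif1bp, which binds Kif1 motors, had a value of 0.05 on the log2 scale and did not pass.

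The number of transport kinesins that fell depends on the scaling. TMM gave 3. Upper-quartile scaling gave 6, and unscaled library totals gave 8; these moved the median of all genes to -0.12 and -0.37. The split over all genes was 2503 lower and 2454 higher with TMM, 3051 and 1951 with upper quartiles, and 4815 and 1148 with library totals.

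Among the remaining members, Kif26b had the largest fall of all kinesins tested. Kif26b, a member of the kinesin-11 family linked to Wnt5a signalling and kidney development, lies on chromosome 1 (178529125 to 178932857). It was at 134, 152 and 101 CPM with serum and at 24.9, 24.5 and 11.6 CPM with FGF-2. Its log2 fold change was -2.63 ± 0.29, with an edgeR adjusted p of 0.000369. Kif24, a centriolar kinesin that restrains cilium formation, had 6.88, 6.80 and 7.91 CPM with serum and 1.95, 3.29 and 0.902 CPM with FGF-2 (log2 -1.69 ± 0.33, edgeR adjusted p 0.00200). Neither gene's groups overlapped. Kif7, the Hedgehog pathway kinesin of the cilium tip, had a log2 fold change of 0.13, and Kif21b, a regulator of microtubule growth, one of -0.55 (edgeR adjusted p 0.0700). Kif21b passed as lower without serum library 3 (log2 -0.72) or FGF-2 library 2 (log2 -0.73), and with upper-quartile scaling or library totals. Kif19a and Kif9 were under 1.5 CPM in every library and did not pass.

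H3K27ac was then compared at the same genes, using the authors' deposited region table, in which each of 40772 regions is tied to a gene by the authors' annotation and carries a normalised signal per library, a log2 fold and a false discovery rate (FDR). Unless another fit is named, H3K27ac folds and FDR values below are the authors'. Over all regions 8.33% were called higher and 1.64% lower with FGF-2 at an FDR under 0.05. Kinesin members had 122 regions tied to 32 genes, of which 7 were called higher and 2 lower.

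Around start sites of mitotic kinesins the signal leaned lower with FGF-2. Within 1 kb of a start, 14 regions were tied to 12 mitotic kinesins; 13 had a log2 fold below 0, and in 9 both FGF-2 libraries were below both serum libraries. The median log2 fold of the 14 was -0.50, beside 0.04 over all 12484 regions within 1 kb. Of all such regions 12.9% were lower and 21.1% higher without overlap. Of the 14, 1 was called lower in the authors' deposited table, while 0.681% of all regions within 1 kb were called lower and 2.02% higher.

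That region lies over the Kif11 start (chr19:37375101-37378157), with signals of 484 and 346 in the serum libraries and 250 and 275 in the FGF-2 libraries, a log2 fold of -0.66 and an FDR of 0.0321 in the authors' deposited table. The Kif22 region had 152 and 95.3 with serum and 68.5 and 72.0 with FGF-2 (log2 -0.82, FDR 0.0835). Kifc1 had 64.5 and 51.8 with serum and 30.4 and 31.0 with FGF-2 (log2 -0.92, FDR 0.164), and Kif4, 66 bases into the gene, 70.0 and 41.8 with serum and 27.6 and 30.0 with FGF-2 (log2 -0.96, FDR 0.183). None of these 3 passed, although their folds exceeded that of Kif11, whose signal was higher. Kif14 (log2 -0.78), Kif18b (-0.53), Kif23 (-0.50), Kif18a (-0.49) and Kif15 (-0.33) also had a region lower without overlap and did not pass. Kif2c (-0.22), Kif20a (-0.19) and Kif20b (-0.19) had overlapping groups at the start, although their RNA was lower by 3.83-fold, 2.63-fold and 3.03-fold. Over the Kif4 promoter window itself lies a region tied to Pdzd11, left out of the 14 (log2 0.12, FDR 0.907).

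Around the starts of transport kinesins, 12 regions were tied to 9 genes, with a median log2 fold of 0.03. Of these, 0 were called, 6 had a fold below 0, 1 (at Kif3a, log2 -0.38) was lower without overlap and 2 (at Kif13b and Kif16b) were higher. The summed signal of mitotic start regions divided by that of transport start regions, which needs no scaling between libraries, was 1.35 and 1.40 with serum and 0.994 and 0.951 with FGF-2. With 2 libraries per group an exact permutation test on 1 value cannot pass 0.05, and none was run.

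With edgeR on reads recovered from the table, the Kif11 region had a log2 fold of -0.66 (adjusted p 0.0472), and 2 mitotic start regions were called lower. When 1 library was left out, its fold stayed between -0.88 and -0.40, and it was called only without serum library 2 (adjusted p 5.56e-06 in edgeR). Lower calls at mitotic starts then numbered 7, against 0 without any 1 of the other libraries. Such fits set 2 libraries against 1, with the spread taken from the group of 2. With limma the Kif11 region had an adjusted p of 0.0528. Serum library 2 had an input of 110273836 fragments, against 12241177 to 15672630 for the other inputs, and its part in these calls was not tested.

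**Figure D4:**
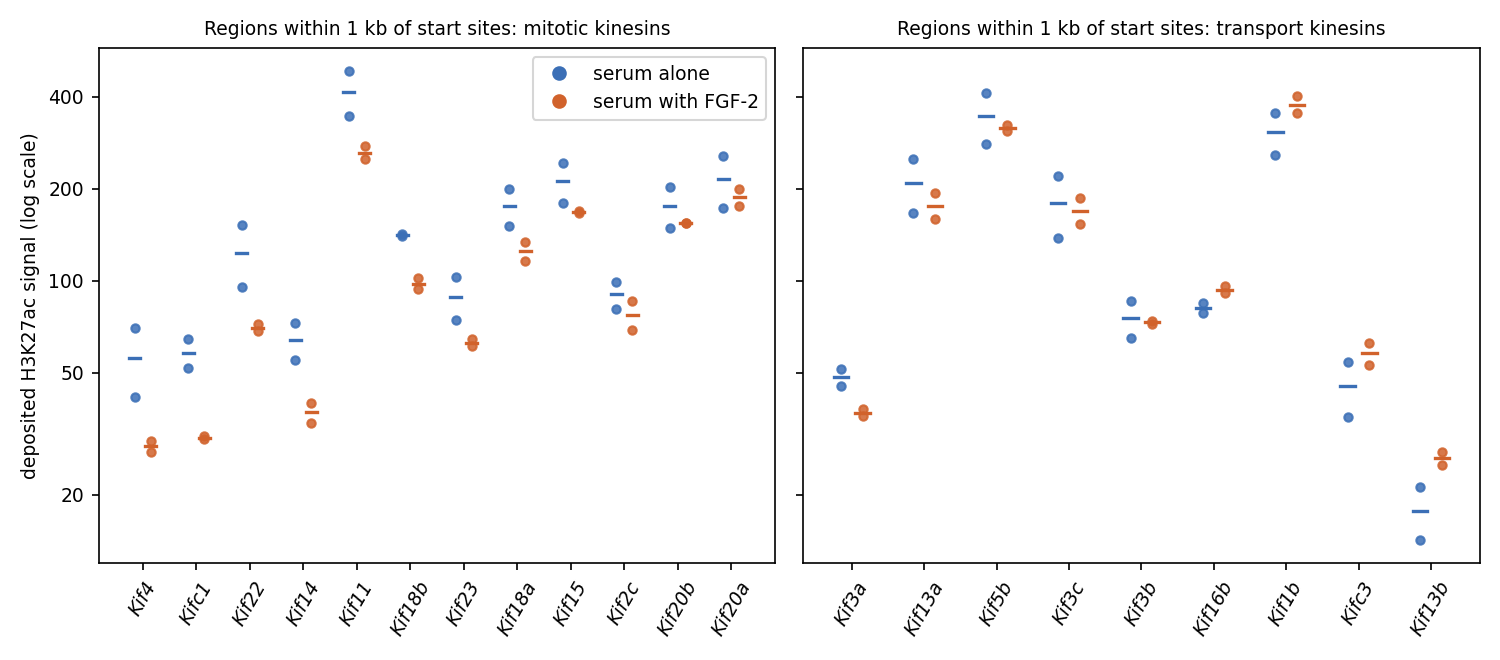
Deposited H3K27ac signal (log scale) within 1 kb of start sites of mitotic (left) and transport kinesins (right), for the region of highest signal per gene, with 2 libraries per group and bars at means. Left, the FGF-2 points lie below the serum points for 9 of 12 genes, and right for Kif3a alone.

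Kif3c, the transport kinesin whose RNA rose, had 14 tied regions. The region over its start did not pass, at 220 and 138 with serum and 153 and 186 with FGF-2 (log2 -0.08, FDR 0.942 in the authors' deposited table). An intronic region 27242 bases into the gene (chr12:3392374-3394276) had 71.8 and 72.7 with serum and 197 and 173 with FGF-2, a log2 fold of 1.36 with an FDR of 2.2e-05. A region at -14227 bases from the start had 101 and 59.3 with serum and 143 and 160 with FGF-2 (log2 0.91, FDR 0.0283). Both called regions of Kif3c thus lay away from its start. Of all 3398 regions called higher, 252 were within 1 kb of a start.

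Kif26b also had 14 tied regions, and its start region did not pass (log2 -0.29, FDR 0.583). An intronic region 192412 bases from the start had 140 and 114 with serum and 81.8 and 58.0 with FGF-2 (log2 -0.86, FDR 0.0496 in the authors' deposited table). Signal at Kif24's start had a log2 fold of 0.14 (FDR 0.865), while its RNA fell.

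**Figure D5:**
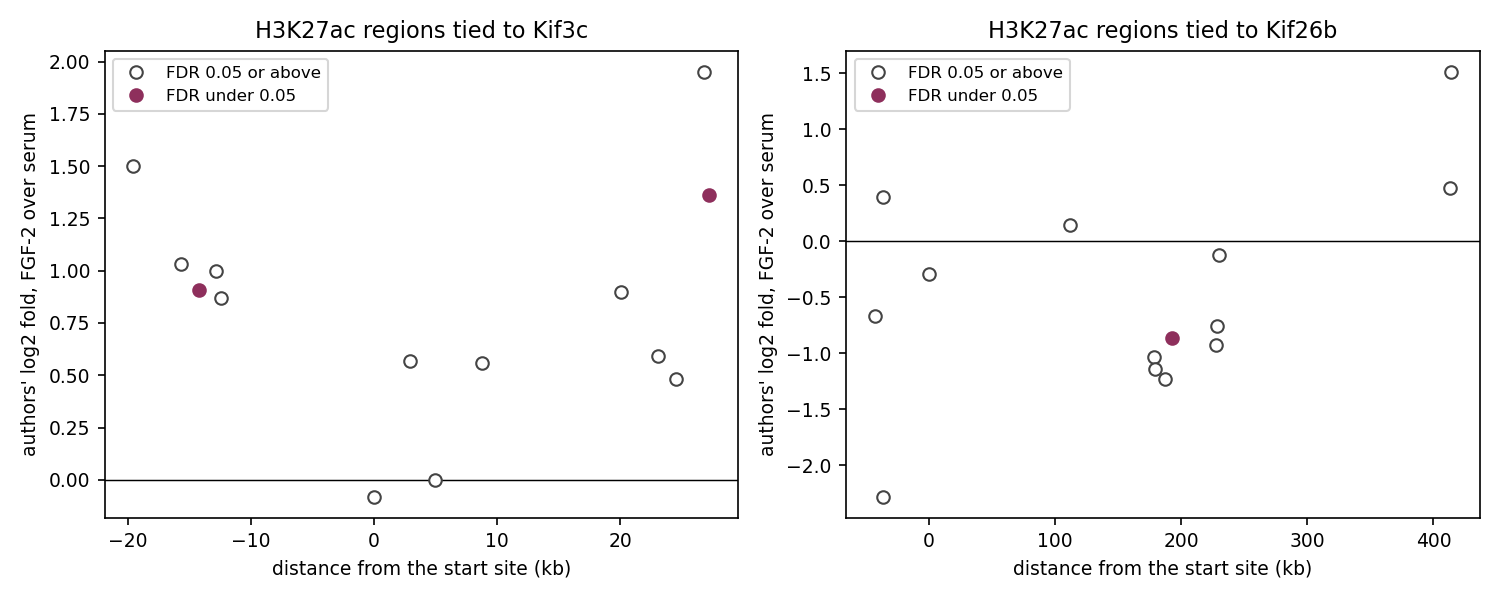
The authors' log2 H3K27ac fold (y axis) of each region tied to Kif3c (left) and Kif26b (right) against its distance from the start site in kb; filled points have an FDR under 0.05. Start regions lie at -0.08 and -0.29, and the filled points, at 1.36 and 0.91 for Kif3c and -0.86 for Kif26b, lie away from the start.

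The other called regions were all higher with FGF-2 and away from starts, where most higher calls over all regions also lay. Kif15 and Kif18b, whose RNA fell, each had an intronic region with a higher signal: 9.21 and 20.1 with serum against 45.7 and 47.0 with FGF-2 for Kif15 (log2 1.66, FDR 0.0231), and 6.45 and 13.4 against 31.4 and 35.0 for Kif18b (log2 1.74, FDR 0.0486). An exonic region of Kif16b had 7.37 and 16.7 with serum and 65.6 and 45.0 with FGF-2 (log2 2.2, FDR 0.00119). Kif16b had no RNA counts in any library, though a region over its start had signals of 84.7 and 78.6 with serum and 96.0 and 91.0 with FGF-2. Whether the authors' counting left out its reads was not tested. A pair of intergenic regions tied to Kifc3, at -67108 and -67889 bases from its start, had log2 folds of 1.95 (FDR 0.0474) and 2.60 (FDR 0.00285). That a region acts on the gene it is tied to was not tested.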

How the data were processed

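Gene counts are raw read counts that the authors deposited. The submitters' processing notes name STAR 2.5.2a, HTSeq 0.10.0, DESeq2, MACS2 2.2.6, DiffBind, ChIPseeker and mm10. The kit marks strand, but the strand setting and annotation of counting are not stated in these sources, which makes antisense, overlapping and copied genes uncertain. Reads that the counting did not assign to a gene, for any reason (37% to 43.2% of listed reads), were left out. The authors' deposited tables give log2 folds, p-values and, per region, a normalised signal; their MACS2 peak files give a ratio of signal over background and −log10 values, per the file headers, and served here for overlap only.

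Members and lists were chosen with earlier results of these data known. RNA was tested with edgeR 4.0.16 (quasi-likelihood, robust, TMM, at least 10 summed counts, Benjamini-Hochberg over all genes at 0.05) in R 4.3.3, and SE was derived as |log2 fold change| divided by √F. H3K27ac calls are the authors'. Signals were whole reads divided by a factor (100% whole within 0.02 reads in each library), and edgeR on those reads was an alternative. Shared replicate numbers were not taken as pairs. On simulated data with 3 against 3 and 12103 genes tested, 87% of 2-fold and 98% of 4-fold changes were recovered. With 2 against 2 H3K27ac libraries and 40772 regions, recovery was 36% and 86%. The 200 genes and 200 regions given a change were drawn only from those above a minimum mean level. Recovery at lower levels is not known.

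Values in every library are given for members past the RNA test, and for the transport member of highest CPM that did not pass; other lists give up to 2 called genes each way with a mean of at least 5 CPM. Other genes with values (Nr5a1, Mc2r, Nr0b1, Prc1, Kif2a, Kif21b, Kif3b, Kifap3, Kif13b and Kifc3, for example) were chosen for mention after seeing their values. Promoter windows come from RefSeq on GRCm38.p6. Python 3.11.15 drew the figures with matplotlib 3.10.9.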

Additional observations from a re-analysis of the deposited data

How the results depend on the processing

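All 12 mitotic kinesins were called lower in each of the RNA alternatives, which were other scalings, filters and tools, the replicate block, a false discovery rate of 0.01 and leaving out each library; 11 were called when Kifc1 was left off the list, an alternative chosen after seeing the data. Library totals alone moved the median log2 fold change of mitotic kinesins to -1.95 and that of transport kinesins to -0.56. Transport kinesins called lower numbered 6 with upper quartiles and 8 with library totals. With limma-voom and with the replicate block, 2 transport kinesins and 2 members in all were called higher, Kif13b being the added gene; the block also called Kif21b lower (log2 -0.56), for 18 members lower; with DESeq2's size factors 2 members were called higher, Kif2a being the added gene. Leaving out 1 library gave 1 to 2 transport kinesins and 1 to 2 members higher: Kif13b passed without serum library 2 (log2 0.60) and without FGF-2 library 3 (log2 0.57). Kif5a passed as lower without serum library 1, Kifap3 without serum library 3, and Kif21b without serum library 3 or FGF-2 library 2. Deviations of same-numbered libraries 1, 2 and 3 from their group means correlated at -0.14, 0.0716 and 0.42 across 8762 genes. Serum library 1 correlated best with FGF-2 library 2 (0.367), serum library 2 with FGF-2 library 1 (0.496) and serum library 3 with FGF-2 library 3, a hint from the data and not the design; the numbers were not taken as pairs.

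Of 459 gene values in other settings, 423 kept direction and call, 0 called genes lost their call, 22 values of 9 genes gained one and 15 values of 7 genes changed sign. None of those genes was called in the main test, and 1 value, Kif3b with library totals, is in both counts. Kif3b gave -0.10 with upper quartiles, -0.35 with library totals, -0.0077 with edgeR's own filter, and -0.041 to 0.034 when 1 library was left out, below 0 without serum library 1, serum library 3 or FGF-2 library 1. Library totals also gave -0.30 for Kif1bp, -0.24 for Kif5b, -0.10 for Kif17, -0.22 for Kif7 and -0.073 for Kif2a. Kif1bp gave -0.051 with upper quartiles. When 1 library was left out, Kif5b ranged from -0.031 (without FGF-2 library 3) to 0.20, Kif7 from -0.020 (without serum library 3) to 0.26, and Kif9 from -0.45 to 0.25 (without FGF-2 library 2).

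H3K27ac calls moved more. Regions tied to kinesins, 7 higher and 2 lower as deposited, were 11 and 5 with edgeR on recovered reads, 11 and 4 with limma, and 3 and 0 at an FDR of 0.01. The replicate block gave 0 lower, and TMM, chosen after seeing the data, gave 15 lower. Lower calls at mitotic starts, 1 as deposited, were 2 with edgeR, 8 with TMM, and 0 with the replicate block and at an FDR of 0.01. Leaving out 1 library gave 4 to 12 higher and 0 to 13 lower over all kinesin regions, 0 to 7 lower at mitotic starts, and a median at transport starts of -0.07 to 0.27. The median at mitotic starts stayed below 0, from -0.61 to -0.26. The leave-out fits were edgeR on recovered reads and not the authors' calls. The cause of these shifts was not tested. With edgeR on simulated reads and 200 changed regions above a minimum mean signal, the self-test recovered 36% of 2-fold H3K27ac changes. This limits what such a fit can call with 2 libraries per group. The authors' calls were not simulated, so their own recovery is not known.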

Other observations

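Other microtubule genes were called both ways. Of 18 tested dynein and dynactin genes, which form the minus-end counterpart of transport kinesins, 3 fell and 3 rose. These counts are near the share of all genes tested, of which 20.4% fell and 20% rose. Nde1 and Ndel1, related regulators of dynein, had opposite values: Nde1 was at 57.4, 50.3 and 39.5 CPM with serum and 26.9, 30.1 and 26.2 CPM with FGF-2 (log2 -0.83 ± 0.14), and Ndel1 was at 25.6, 27.2 and 28.3 CPM and at 49.7, 41.7 and 52.9 CPM (log2 0.83 ± 0.12). Dync1li1, a light intermediate chain that links dynein to adaptors, rose (log2 0.46) and Dynll2, a light chain, fell (log2 -0.48).

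Of 12 tested tubulins, the subunits of the track itself, 3 rose and 2 fell. Tubb2a rose from 27, 30.5 and 28.2 CPM to 59.4, 52.8 and 88.4 CPM (log2 1.22 ± 0.18), and Tuba1c had a log2 fold change of 0.93. Both genes that fell encode gamma-tubulin, which nucleates microtubules at centrosomes: Tubg1 (log2 -0.94) and Tubg2 (log2 -0.64). These directions are edgeR calls with TMM at an adjusted p under 0.05, beside 20.4% lower and 20% higher over all genes.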
